A study of Homo sapiens with 6 samples.

Results

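The enzymes that make, salvage and break down the building blocks of DNA outside ribonucleotide reductase were examined in TPC-1 cells, a human papillary thyroid carcinoma line. The members were the 9 genes named by the rule, *TYMS*, *TK1*, *TK2*, *DCK*, *DGUOK*, *DCTD*, *DUT*, *DTYMK* and *SAMHD1*, chosen by gene name out of the 58735 genes of the deposited table. All 9 were found and all 9 were among the 13621 genes that could be tested. Wild strain TPC-1 cells (3 libraries, genotype WT) were compared with *RRM2*-OE-TPC-1 cells (3 libraries), the same line infected with a lentivirus that carries full-length *RRM2* behind a CMV promoter and selected with puromycin. The wild strain carried no empty vector, so that infection and puromycin selection cannot be told apart from the excess of *RRM2*. In the labels, the genotype of 2 of the *RRM2*-OE-TPC-1 libraries names RRM3 and RRM4, whereas their titles name *RRM2*. The libraries held 14317091 to 17084067 reads on genes. *RRM2*-OE replicate 1 stood somewhat apart, with a chi-square of 5.32 and 6.02 per degree of freedom against the other two and 1.82 between those, beside 3.05 to 3.24 among the wild strain libraries. Without it the same 6 members passed the test, in the same direction, as *TYMS* (1.31), *TK1* (0.84), *DCK* (0.87), *DTYMK* (0.70), *SAMHD1* (0.49) and *TK2* (-1.30) on the log2 scale.

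DNA replication needs all 4 deoxynucleoside triphosphates, or dNTPs. Ribonucleotide reductase makes deoxynucleotides from ribonucleotides, and thymidylate synthase (*TYMS*) adds the methyl group that turns dUMP into dTMP. A second route, salvage, phosphorylates deoxynucleosides taken up or released inside the cell. Its kinases come in a cytosolic set, with *TK1* for thymidine and *DCK* for deoxycytidine, deoxyadenosine and deoxyguanosine, and a mitochondrial set, with *TK2* for the pyrimidine and *DGUOK* for the purine deoxynucleosides. The mitochondrial pair serves replication of mitochondrial DNA, which goes on in resting cells, whereas *TK1* and *TYMS* are known for their peak in S phase. Thymidylate kinase (*DTYMK*) carries dTMP to dTDP, dCMP deaminase (*DCTD*) supplies dUMP, dUTPase (*DUT*) removes dUTP and leaves dUMP, and *SAMHD1* cleaves dNTPs back to deoxynucleosides.

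The sequence before the start site is shown for the members with the largest rise and the largest fall, *TYMS* and *TK2*, for *TK1*, the cytosolic counterpart of *TK2*, and for *DUT*, whose window held the most matches. Each run is the 250 bases before a RefSeq start on GRCh38.p14, read 5′ to 3′ along the gene. Capitals mark the letters of 3 motifs on either strand, an E2F site (TTTGGCGC, TTTCCCGC, TTTCGCGC or TTTGCCGC), the CCAAT box (CCAAT) and the cell cycle homology region (TTTGAA). *TYMS* lies on the plus strand of chromosome 18 (chr18:657403-657652), *TK1* on the minus strand of chromosome 17 (chr17:78187053-78187302, the downstream of 2 starts), *TK2* on the minus strand of chromosome 16 (chr16:66550123-66550372) and *DUT* on the plus strand of chromosome 15 (chr15:48331947-48332196, the last of 4 starts).
TYMS: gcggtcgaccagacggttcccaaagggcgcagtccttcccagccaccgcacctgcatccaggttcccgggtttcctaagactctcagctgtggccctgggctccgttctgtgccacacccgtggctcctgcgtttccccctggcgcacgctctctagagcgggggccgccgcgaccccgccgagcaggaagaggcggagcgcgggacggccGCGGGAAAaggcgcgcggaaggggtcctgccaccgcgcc
TK1: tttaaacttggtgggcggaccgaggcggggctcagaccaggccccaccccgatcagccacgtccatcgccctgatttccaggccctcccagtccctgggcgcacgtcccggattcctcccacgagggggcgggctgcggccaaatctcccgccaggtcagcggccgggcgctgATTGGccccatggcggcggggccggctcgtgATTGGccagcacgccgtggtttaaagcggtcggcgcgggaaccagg
TK2: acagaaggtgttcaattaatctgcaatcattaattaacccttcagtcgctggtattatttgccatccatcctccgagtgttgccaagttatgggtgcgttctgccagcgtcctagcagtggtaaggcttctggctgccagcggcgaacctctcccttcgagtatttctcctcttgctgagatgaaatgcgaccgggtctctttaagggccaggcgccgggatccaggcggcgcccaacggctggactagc
DUT: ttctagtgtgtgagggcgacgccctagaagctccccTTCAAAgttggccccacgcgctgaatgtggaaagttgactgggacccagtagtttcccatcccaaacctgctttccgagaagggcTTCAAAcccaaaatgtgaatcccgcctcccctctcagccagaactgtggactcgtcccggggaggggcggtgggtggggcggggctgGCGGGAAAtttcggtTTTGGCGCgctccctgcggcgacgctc
The *TYMS* window held an E2F match that begins 39 bases before the start. The *DUT* window held E2F matches at 42 and 27 bases and TTTGAA matches at 214 and 129 bases before the start. The *TK1* window held CCAAT matches at 77 and 46 bases, and the *TK2* window held none of the 3 motifs. Of the 9 members, all of which were in the RefSeq table, 2 had an E2F match in at least 1 of their windows, 4 a CCAAT match and 1 a TTTGAA match. Counted by window, 2, 4 and 1 of the 14 windows of the members held these motifs, in the same order. Among all 35116 windows of the same length, 2.79% held the E2F letters, 32% CCAAT and 13.3% TTTGAA. No match overlapped another in the runs shown.

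The 9 genes moved in both directions. With *RRM2* overexpressed, *TYMS*, *TK1*, *DCK*, *DTYMK* and *SAMHD1* rose, *TK2* fell, and *DCTD*, *DGUOK* and *DUT* did not pass the test. The FPKM of *TYMS* was 2.47 times and that of *TK1* 1.82 times that of wild strain TPC-1, whereas *TK2* was 2.43 times lower. Each gene was tested with limma on log2(FPKM + 0.1), with Benjamini-Hochberg adjustment over all tested genes. At an adjusted p of 0.05 or less, 6 of the 9 members passed, where 67.6% of all tested genes did. Of these, 5 members were higher, where 34.9% of all tested genes were, and 1 was lower, where 32.7% were. The libraries of the groups did not overlap for these same 6 members, 5 higher and 1 lower, as for 72.2% of all tested genes (37.3% higher and 35% lower). With an absolute log2 fold change of at least 1 as well, 1 member was higher (*TYMS*) and 1 lower (*TK2*), beside 4.48% and 6.97% of tested genes (11.5% in either direction). The median log2 fold change was 0.51 over the 9 members and 0.011 over all tested genes. The share of members called is thus near that of all genes, and the values of each gene follow.

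**Figure D1:**
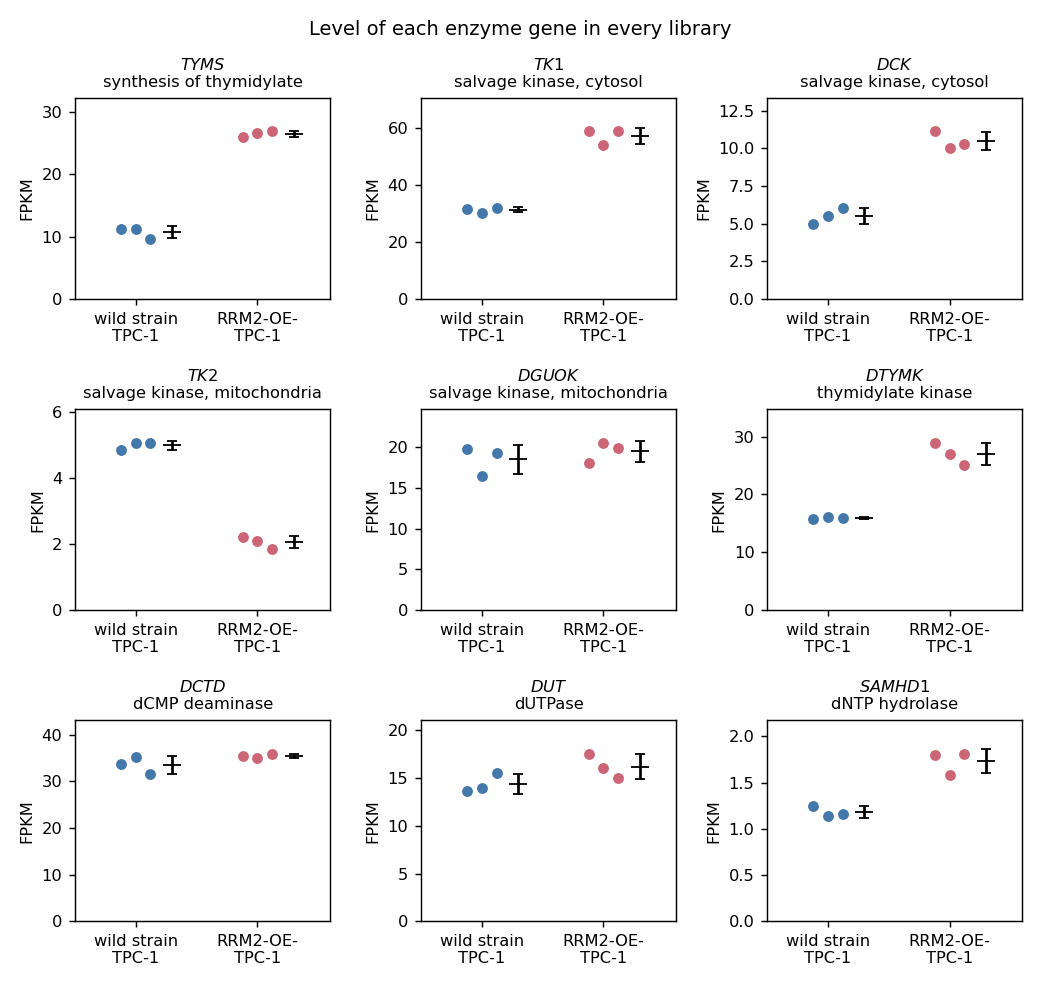
Level of each of the 9 genes in FPKM (vertical axes, from 0) in the 3 wild strain TPC-1 libraries (blue points) and the 3 *RRM2*-OE-TPC-1 libraries (red points), with the mean and SD of each group in black. The groups lie apart for *TYMS*, *TK1*, *DCK*, *DTYMK*, *SAMHD1* and, in the other direction, *TK2*, and they overlap for *DGUOK*, *DCTD* and *DUT*.

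*TYMS* (ENSG00000176890, on chromosome 18 from 657604 to 673578 of GRCh38), the enzyme of thymidylate synthesis, changed most among the members that rose. Its FPKM was 11.3, 11.3 and 9.65 in wild strain TPC-1 and 26.0, 26.7 and 26.9 in *RRM2*-OE-TPC-1. Every overexpressing library stood above every wild strain library, and the spread within a group was small beside the gap. The log2 fold change was 1.30 (standard error 0.0631, 95% interval 1.15 to 1.44, adjusted p = 1.03e-06 from limma). These values rest on 380 to 1128 reads per library. Of the exonic bases of *TYMS*, 39.2% overlap exons of *ENOSF1* on the opposite strand, a gene with a mean of 7.42 FPKM in the wild strain and of 5.61 with *RRM2* overexpressed. The library kit keeps the strand, but the sources do not say that counting used it, so the *TYMS* value is uncertain to that degree. *ENOSF1* went the other way, at -0.40 on the log2 scale (limma, adjusted p = 3.18e-04). The antisense *TYMSOS* shares a further 183 bases and had 1.03 and 1.44 FPKM in the same order.

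Both cytosolic salvage kinases rose. *TK1* (ENSG00000167900, on chromosome 17 from 78174075 to 78187233) stood at 31.8, 30.4 and 32.0 FPKM in wild strain TPC-1 and at 58.9, 54.1 and 58.9 in *RRM2*-OE-TPC-1. The groups did not overlap, and the log2 fold change was 0.87 (standard error 0.0439, 95% interval 0.76 to 0.97, adjusted p = 1.26e-06 from limma). *DCK* (ENSG00000156136, on chromosome 4 from 70992538 to 71030914) had 4.99, 5.53 and 6.03 FPKM in wild strain TPC-1 and 11.1, 10.004 and 10.3 in *RRM2*-OE-TPC-1. Here too every overexpressing library was the higher one, with a log2 fold change of 0.92 (standard error 0.0763, 95% interval 0.74 to 1.09, adjusted p = 1.67e-05 from limma). No exon of another gene overlaps *TK1*, and 6.17% of the exonic bases of *DCK* are shared with *MOB1B* on the same strand.

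Of the mitochondrial salvage kinases, 1 fell and 1 did not pass the test. *TK2* (ENSG00000166548, on chromosome 16 from 66508003 to 66552544), the mitochondrial thymidine kinase, had 4.85, 5.08 and 5.06 FPKM in wild strain TPC-1 and 2.21, 2.10 and 1.86 in *RRM2*-OE-TPC-1. All 3 overexpressing libraries lay under all wild strain libraries, and *TK2* was the member that fell, with a log2 fold change of -1.24 (standard error 0.0819, 95% interval -1.43 to -1.05, adjusted p = 4.65e-06 from limma). Between 212 and 612 reads per library stood behind these values, and the genes whose exons overlap *TK2* had at most 0.034 FPKM in the mean of a group. Asked for a change above 1 on the log2 scale, limma's treat gave *TYMS* an adjusted p of 0.0202 and *TK2* one of 0.164.

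*DGUOK* (ENSG00000114956, on chromosome 2 from 73926826 to 73958961), which phosphorylates purine deoxynucleosides in mitochondria, had 19.8, 16.5 and 19.3 FPKM in wild strain TPC-1 and 18.0, 20.5 and 19.8 in *RRM2*-OE-TPC-1. The groups overlapped. Its log2 fold change of 0.074 (95% interval -0.11 to 0.25, adjusted p = 0.422 from limma) did not pass, and its sign changed when wild strain replicate 2 was left out, where it was -0.0076. The antisense gene *DGUOK-AS1* shares 62 exonic bases with it and had a mean of 1.34 FPKM in wild strain TPC-1 against 0.688 with *RRM2* overexpressed.

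**Figure D2:**
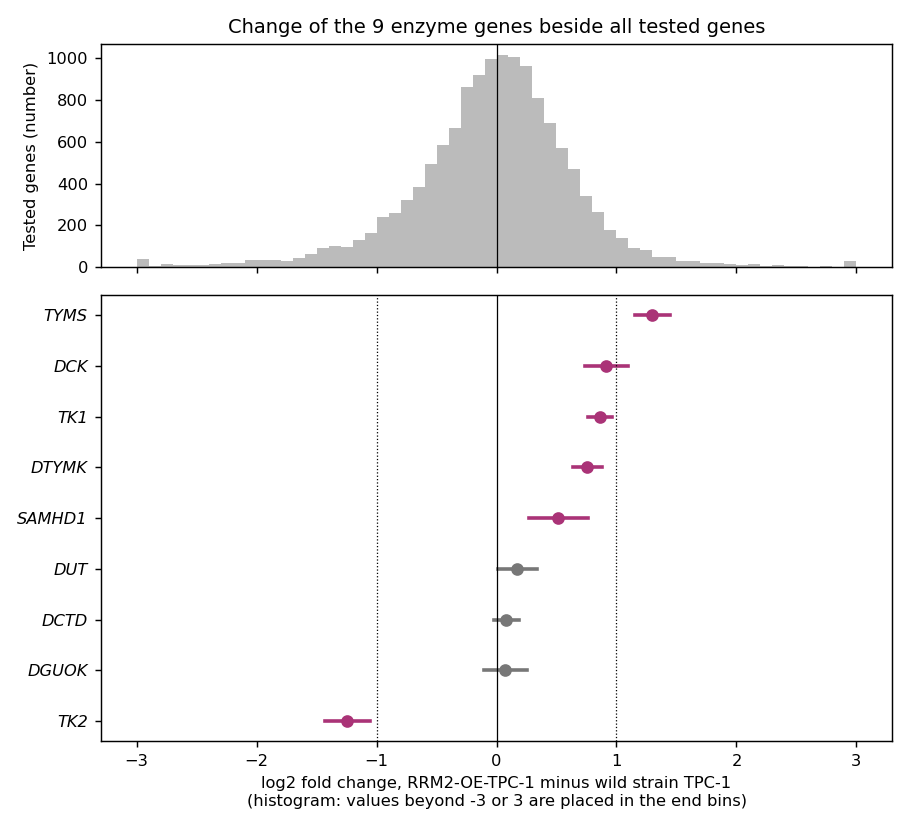
The upper panel counts all 13621 tested genes by log2 fold change (horizontal axis, *RRM2*-OE-TPC-1 minus wild strain TPC-1), and the lower panel gives the log2 fold change of each of the 9 genes as a point with its 95% interval as a line. Purple marks an adjusted p of 0.05 or less and grey the others, and dotted lines mark -1 and 1. *TYMS* at 1.30 and *TK2* at -1.24 lie beyond the dotted lines, and the interval of *DCK*, 0.74 to 1.09, crosses one.

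The balance between cytosolic and mitochondrial kinases was read within each library, where the scaling to depth cancels. The FPKM of *TK1* was 5.98, 6.33 and 6.56 times that of *TK2* in the wild strain libraries, given in rising order, and 25.7, 26.6 and 31.7 times in the overexpressing libraries. The log2 ratio thus differed by 2.11 between the groups. For *DCK* over *DGUOK* the ratio ran from 0.253 to 0.336 in wild strain TPC-1 and from 0.487 to 0.617 in *RRM2*-OE-TPC-1, a difference of 0.84 in the log2 ratio. *TYMS* over *SAMHD1*, synthesis against breakdown, ran from 8.33 to 9.97 and from 14.4 to 16.9, a difference of 0.79. In all 3 ratios the groups did not overlap, and each gave p = 0.1 in a two-sided exact permutation test (0.1 after adjustment over the 3 ratios). With 3 libraries against 3 this is the smallest p that the test can give, so that it cannot pass 0.05.

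**Figure D3:**
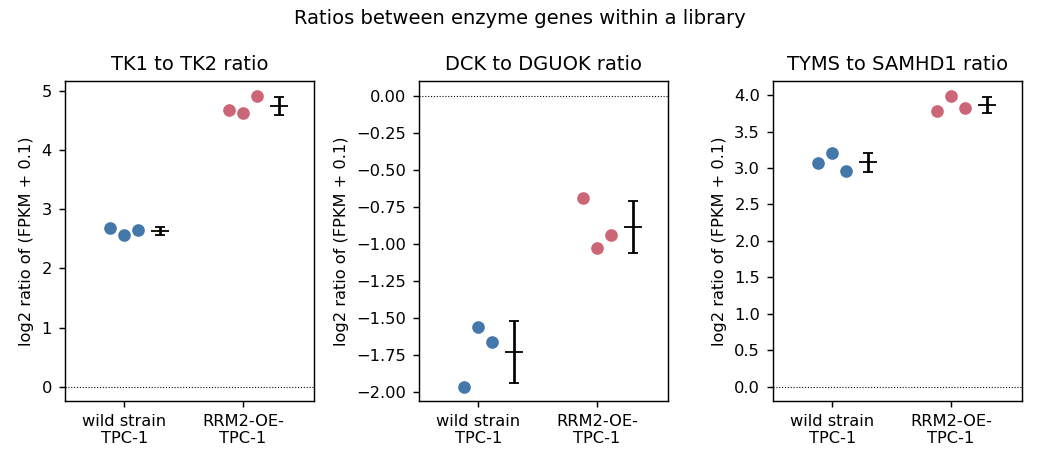
Log2 ratio of (FPKM + 0.1) between the named genes within each library (vertical axes), for *TK1* to *TK2*, *DCK* to *DGUOK* and *TYMS* to *SAMHD1*. Blue points are wild strain TPC-1, red points *RRM2*-OE-TPC-1 and black marks the mean and SD of 3 libraries. All 3 ratios were higher in the overexpressing libraries, by 2.11, 0.84 and 0.79.

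The enzymes that feed and guard the thymidylate step moved unequally. *DTYMK* (ENSG00000168393, on chromosome 2 from 241675742 to 241686991), next in line for the product of both *TYMS* and *TK1*, rose from 15.8, 16.1 and 15.9 FPKM to 28.96, 26.9 and 25.2. The 3 wild strain values were nearly equal, and the log2 fold change was 0.76 (standard error 0.0521, 95% interval 0.64 to 0.88, adjusted p = 5.91e-06 from limma). *DCTD* (ENSG00000129187, on chromosome 4 from 182890060 to 182917936), one source of dUMP for *TYMS*, had 33.8, 35.2 and 31.5 FPKM in wild strain TPC-1 and 35.5, 34.96 and 35.9 in *RRM2*-OE-TPC-1. These groups overlapped, and the log2 fold change of 0.083 had a 95% interval of -0.019 to 0.19 (adjusted p = 0.130 from limma). It passed, at 0.12 with an adjusted p of 0.0408, when wild strain replicate 2 was left out.

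*DUT* (ENSG00000128951, on chromosome 15 from 48331011 to 48343373), the other source of dUMP, lay near the threshold. Its FPKM was 13.6, 13.9 and 15.5 in wild strain TPC-1 and 17.6, 16.1 and 15.0 in *RRM2*-OE-TPC-1. Wild strain replicate 3 stood above overexpressing replicate 3, and the log2 fold change was 0.17 (95% interval 0.0095 to 0.34, adjusted p = 0.0590 from limma). Without wild strain replicate 3 it was 0.23 (adjusted p = 0.0236), and without *RRM2*-OE replicate 3 it was 0.23 (adjusted p = 0.0262). *DUT* encodes a nuclear and a mitochondrial form from different starts, which the gene value does not separate. Of its 8 pseudogenes in the table, the 5 named *DUTP3*, *DUTP4*, *DUTP5*, *DUTP7* and *DUTP8* had no reads, and *DUTP6* had the most, 32 over all libraries, whereas *DUT* had 834 to 1012 in each library. An antisense gene, *AC023355.1*, shares 533 of its exonic bases and had a mean of at most 0.185 FPKM.

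*SAMHD1* (ENSG00000101347, on chromosome 20 from 36889773 to 36951901), the dNTP hydrolase, was the member with the lowest FPKM and rose as well. It had 1.25, 1.14 and 1.16 FPKM in wild strain TPC-1 and 1.80, 1.58 and 1.81 in *RRM2*-OE-TPC-1, from 208 to 325 reads per library. The groups did not overlap, and the log2 fold change was 0.51 (standard error 0.106, 95% interval 0.27 to 0.76, adjusted p = 0.00295 from limma). At this level the pseudocount weighs on the size of the change, which was 0.32 with a pseudocount of 1. *TLDC2* on the opposite strand shares 1159 of its exonic bases and had a mean of at most 0.0415 FPKM. *SAMHD1* is known to respond to interferon in some cells, and of 24 tested interferon-stimulated genes 11 were higher and 6 lower, with a median of 0.35, beside 34.9% and 32.7% of all tested genes. Past a log2 fold change of 1 as well, 7 were higher and 0 lower, beside 4.48% and 6.97% of all tested genes. *TRIM22* and *OAS1* passed the filter through *RRM2*-OE-TPC-1 alone, and without them 10 of 22 were higher, 6 of these past 1, and 6 lower, with a median of 0.26. The log2 fold change was 2.19 for *ISG15*, a ubiquitin-like modifier, 2.19 for *IFI44*, 1.57 for *IFIT3*, 1.33 for *OASL* and 1.23 for *IFIT1*. Of the genes that fell, *STAT2*, a transcription factor of the interferon response, had -0.92 and was named after its values were seen. Their part in the result for *SAMHD1* was not tested.

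FPKM is per length, and the 9 genes were ordered by it, so that the order depends on the length used. For *SAMHD1* and *TK2* that length took in all annotated exons, 11261 and 7169 bases, expressed or not. In *RRM2*-OE-TPC-1, *SAMHD1* had 293 to 325 reads per library and *TK2* 212 to 258, the reverse of their order by FPKM. In wild strain TPC-1 the order of mean FPKM was *DCTD* 33.5, *TK1* 31.4, *DGUOK* 18.5, *DTYMK* 15.9, *DUT* 14.4, *TYMS* 10.7, *DCK* 5.52, *TK2* 4.99 and *SAMHD1* 1.18. Of the 8 pairs of neighbours, *DCTD* with *TK1* and *DCK* with *TK2* overlapped in their library values. In *RRM2*-OE-TPC-1 the order was *TK1* 57.3, *DCTD* 35.4, *DTYMK* 27.0, *TYMS* 26.5, *DGUOK* 19.5, *DUT* 16.2, *DCK* 10.5, *TK2* 2.06 and *SAMHD1* 1.73, and here the overlapping neighbours were *DTYMK* with *TYMS*. With TPM computed from the recovered reads and the same lengths, 5 pairs of neighbours lay apart in the wild strain and 6 with *RRM2* overexpressed. These stand in place of 6 and 7. By FPKM, *TYMS* thus moved from the sixth place to the fourth, and *TK1* stood above *DCTD* in every overexpressing library.

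The genes whose pattern over the 6 libraries was nearest to that of *TYMS*, by the Euclidean distance between log2 values centred on each gene's mean among 12033 genes with a mean of at least 1 FPKM, were *CENPX* (distance 0.091), *RBM38* (0.106) and *ADAMTS1* (0.110). *CENPX* is a centromere protein, *RBM38* an RNA-binding protein and *ADAMTS1* a secreted protease. Nearest to *TK2* were *ADIRF-AS1* (0.0867), *PLCH1* (0.107) and *PCMTD1* (0.125). Over groups this far apart the distance mostly follows the size of the change, with log2 fold changes of 1.26 to 1.27 for the 3 genes near *TYMS* and -1.27 to -1.16 for those near *TK2*.

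The neighbouring steps of nucleotide metabolism were read from 9 lists of 77 genes, written by hand, of which 67 were tested. At an adjusted p of 0.05 or less, 32 were higher and 22 lower, or 30 and 21 of the 64 left without *CDA*, *NT5M* and *SLC28A3*, which passed the filter on low values through 1 group alone. Of all tested genes 34.9% were higher and 32.7% lower. With an absolute log2 fold change of at least 1 as well, 8 list genes were higher and 4 lower, 6 and 3 without those genes, and 3 and 1 with a pseudocount of 1, beside 4.48% and 6.97% of all tested genes. All 3 ribonucleotide reductase genes rose. The overexpressed *RRM2* went from 8.92 ± 0.346 to 48.4 ± 1.78 FPKM (SD, n = 3 each), the catalytic subunit *RRM1* from 16.0 ± 0.483 to 40.1 ± 1.70, and *RRM2B*, the p53-inducible small subunit, from 16.3 ± 0.693 to 33.2 ± 1.59. Their log2 fold changes were 2.43, 1.32 and 1.02, for which limma gave adjusted p values of 1.11e-08, 1.57e-07 and 9.32e-07.

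The folate cycle that supplies the methyl group to *TYMS* was split. Of its 8 tested genes, 2 were higher and 3 lower, beside 34.9% and 32.7% of all tested genes. *SHMT1*, which makes the methylene folate in the cytosol, fell by 0.95 on the log2 scale (adjusted p = 1.07e-05 from limma), from 9.05 ± 0.650 to 4.64 ± 0.298 FPKM (SD, n = 3 each), and mitochondrial *MTHFD2* fell by 0.90. No gene of this list passed the threshold of 1.

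The lists that follow stand beside 34.9% of all tested genes higher and 32.7% lower. Among the kinases that carry mono- and diphosphates on to dNTPs, 7 of 14 were higher and 4 lower. The largest change was that of *NME1*, a nucleoside diphosphate kinase, whose FPKM went from 7.96 ± 0.222 to 17.8 ± 1.96 (SD, n = 3), or by 1.15 on the log2 scale (limma, adjusted p = 4.35e-06). In de novo pyrimidine synthesis, 3 of 5 genes were higher and 1 was lower, and CTP synthase 1, *CTPS1*, rose by a log2 fold change of 1.10. Of 7 genes of ribonucleoside and base salvage, 4 were higher and 0 lower, all by less than 1. The largest changes were those of *HPRT1* with 0.73 and *APRT* with 0.29, the purine base salvage enzymes.

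Genes that take nucleotides, nucleosides or bases apart went both ways. Of 6 tested 5′-nucleotidases, which return nucleotides to nucleosides, 5 were lower and 1 was higher, with a median of -0.37. Without *NT5M*, 4 of the 5 left were lower and 1 was higher, with a median of -0.34. Of all tested genes, 32.7% were lower and 34.9% higher. The mitochondrial deoxynucleotidase *NT5M* had 0.794, 0.576 and 0.992 FPKM in wild strain TPC-1 and 0.282, 0.149 and 0.192 in *RRM2*-OE-TPC-1, from 76 reads in all wild strain and 19 in all overexpressing libraries. It passed the filter on low values through the wild strain alone, which favours genes that differ, and no test is given. Among 8 genes of nucleoside breakdown, 5 were higher and 3 lower, or 4 and 3 of the 7 left without *CDA*. Cytidine deaminase, *CDA*, stood at 0.440 ± 0.104 and 1.79 ± 0.142 FPKM (SD, n = 3), from 21 and 82 reads. It passed the filter through *RRM2*-OE-TPC-1 alone, and no test is given. *DPYD*, which degrades uracil and thymine, was at 4.52 ± 0.184 and 1.96 ± 0.00755 FPKM, a change of -1.17 on the log2 scale (limma, adjusted p = 2.67e-06).

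Of 9 genes that clean the nucleotide pool or remove uracil from DNA, 4 were higher and 3 lower. The largest changes were those of *NUDT1*, which hydrolyses oxidized dNTPs, with 0.99, and of *UNG*, the uracil DNA glycosylase that acts on uracil *DUT* has not kept out, with 0.98 (adjusted p = 2.37e-04 and 2.49e-07 from limma). Of 7 transporters, 3 were higher and 3 lower, or 2 and 3 of the 6 left without *SLC28A3*. For both lists, all tested genes gave shares of 34.9% higher and 32.7% lower. The nucleoside transporters *SLC29A2* and *SLC29A4* had log2 fold changes of -1.69 and -1.53. *SLC28A3*, a concentrative nucleoside transporter, had 6 reads in all wild strain libraries together and 155 in the overexpressing ones (0.0242 and 0.642 FPKM). It passed the filter through the latter alone, and no fold or test is given.

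**Figure D4:**
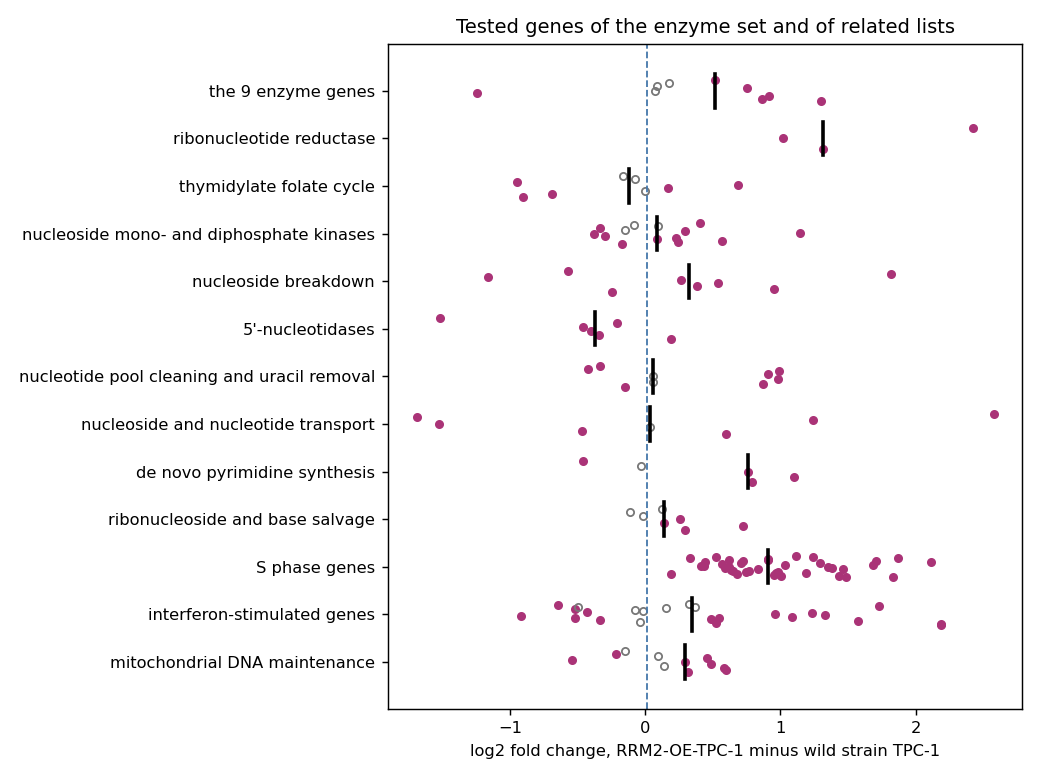
Log2 fold change (horizontal axis, *RRM2*-OE-TPC-1 minus wild strain TPC-1) of each tested gene in the set of 9 enzymes, in the 9 lists of nucleotide metabolism and in lists of S phase genes, interferon-stimulated genes and mitochondrial DNA maintenance. Filled points passed an adjusted p of 0.05, open points did not, the black bar is the median of a list and the dashed blue line the median of all tested genes, 0.011. The 39 tested S phase genes all lie above 0, with a median of 0.91, whereas the enzyme set spreads from -1.24 to 1.30.

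S phase genes were higher too. In a list of 40 such genes, which holds none of the 9 members, 39 were tested and 39 were higher, with a median log2 fold change of 0.91, where 34.9% of all tested genes were higher. *UNG*, counted above among the genes that clean the pool or remove uracil, is in this list as well. The 5 members that rose lay between 0.51 (*SAMHD1*) and 1.30 (*TYMS*). By flow cytometry, the paper reports a larger share of S phase cells and a smaller share of G0/G1 cells in *RRM2*-OE-TPC-1 than in control TPC-1. That assay is separate from these libraries. In the bulk libraries themselves a larger share of cells in S phase and more mRNA per cell cannot be told apart. The part of the S phase genes in the result was not tested.

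Values that bear on mitochondria were set beside the fall of *TK2*. Of 11 genes that maintain mitochondrial DNA, 6 were higher and 2 lower, with a median of 0.29, beside 34.9% and 32.7% of all tested genes. *MGME1*, a nuclease of mitochondrial DNA, had a log2 fold change of 0.60 and *TFAM*, which packages it, one of 0.58 (adjusted p = 3.38e-06 and 5.06e-05 from limma). *TOP1MT*, the mitochondrial topoisomerase, had -0.54 (limma, adjusted p = 2.25e-05) and *MPV17* -0.22, both named after their values were seen. Transcripts of the mitochondrial genome took 4.79% to 5.69% of reads in wild strain TPC-1 and 4.29% to 5.89% in *RRM2*-OE-TPC-1, ranges that overlapped.

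The labelled cell type was checked against its markers. Of 10 thyroid lineage genes, *PAX8* (69.3 FPKM in the wild strain, 58.5 with *RRM2* overexpressed), *FOXE1* (4.30 and 3.19) and *HHEX* (2.47 and 4.61) were at 1 FPKM or more, *NKX2-1* was at 0 in every library, and *TG* and *TSHR* were at or below 0.113 FPKM. The summed level of the list was 74.2 to 78.1 FPKM and 64.3 to 67.8. The 6 epithelial genes summed to 42.9 to 47.1 and 88.4 to 90.8 FPKM, most of it *KRT18*, with means of 41.2 and 85.2. *KRT8* had 2.56 and 3.48 FPKM and *KRT7* 1.18 and 1.01, whereas *CDH1*, *EPCAM* and *KRT19*, defining epithelial genes, had means of at most 0.0972 FPKM. The 8 leukocyte genes summed to at most 0.666 FPKM in a library, with *CD3E*, *MS4A1* and *LYZ* among those at 0 throughout, and the range was 0.349 to 0.666 in wild strain libraries and 0.135 to 0.215 in overexpressing ones. The 5 endothelial genes summed to 0.873 to 1.07 and 0.0667 to 0.170 FPKM, with *KDR* at 0. Most of this was *PECAM1*, with 355 reads in all wild strain libraries and 22 in all overexpressing ones (0.924 and 0.0588 FPKM), and its part in the results was not tested. The 6 fibroblast genes summed to 2.78 to 3.16 and 2.78 to 2.94 FPKM, with *COL1A2*, *COL3A1* and *DCN* at 0.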

How the data were processed

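mRNA of 3 wild strain TPC-1 and 3 *RRM2*-OE-TPC-1 libraries was sequenced. The authors cleaned reads with fastp, aligned them with HISAT2 2.0.5, counted them with FeatureCounts and deposited FPKM, counts divided by gene length and depth; their processing notes name GRCh38.p14. The methods describe poly(A) selection, the labels rRNA depletion with an RNase R step. The 58735 gene identifiers matched GENCODE 29, positions included, and 12 date-like symbols were restored. FPKM times length was a whole multiple of 1 step per library for 100% of values (tolerance 0.01 read), which gave reads and depth. Genes with at least 0.5 FPKM and 10 reads in 3 libraries were tested on log2(FPKM + 0.1) with limma 3.58.1 (R 4.3.3, trend), which understates changes of low genes, with Benjamini-Hochberg adjustment. The study names DESeq2 1.20.0 on counts, which was not used here. Voom on the recovered reads was an alternative (9531 genes called, 9207 with log2 FPKM). All 9 members passed the filter in both groups. FPKM is the unit of every level given, and p-values measure the spread between these replicates, which the study calls biological. No separate infections are described for the *RRM2*-OE-TPC-1 libraries, so these p-values cannot be taken to cover spread between infections. The procedure was also run on simulated data in which few or no genes changed. That setting differs from these libraries, so the run cannot check the calls given here. Replicates differed by more than sampling noise, with a chi-square of 1.82 to 6.02 per degree of freedom. Ratios used exact permutation tests. Python 3.11.15 was used for the rest. Members and lists were chosen with earlier results of these data known. Named genes were the 9 members, per list up to 6 genes past both thresholds or otherwise the 2 largest changes, the nearest patterns and overlapping genes. A few genes that the rule names are not reported here.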

Additional observations from a re-analysis of the deposited data

How the results depend on the processing

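Among the 9 genes, *TYMS*, *TK1*, *DCK*, *DTYMK*, *SAMHD1* and *TK2* kept their direction and stayed past an adjusted p of 0.05 in all 16 alternatives (pseudocounts, filters, scalings, voom on recovered reads, the replicate number as a block, protein-coding genes only, no variance trend and each library left out). *DGUOK* passed in 0 of 16, and ran from -0.0076 (without wild strain TPC-1 replicate 2) to 0.13 with each library left out. *DCTD* passed in 1 and *DUT* in 3, with 0.17 (adjusted p = 0.0332 from limma) among protein-coding genes only. The number of members past a log2 fold change of 1 fell from 2 to 1 with a pseudocount of 1, where *TK2* was -0.97, and to 1 when a change above 1 was tested, and over all tested genes from 1560 to 716 and 618. With a pseudocount of 1, 3 genes of the nucleotide lists were higher and 1 lower past that threshold. Each library left out in turn gave 6 to 7 members called and log2 ratio differences of 2.02 to 2.17 for *TK1* to *TK2*, 0.72 to 0.93 for *DCK* to *DGUOK* and 0.72 to 0.85 for *TYMS* to *SAMHD1*. The libraries share replicate numbers, but the deviations of same-numbered libraries correlated at -0.0105, -0.00602 and -0.055, so the numbers were not taken as pairs. With the replicate block 6 members were called, and 8934 genes in place of 9207, and the 3 ratios gave p = 0.25 in an exact permutation test of signs, the smallest it allows. Depth limited *NT5M*, *CDA* and *SLC28A3*, whose reads were few.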
